A study of Mus musculus with 17 samples.

Results

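Toll-like receptors are the innate immune sensors that recognise molecules of bacteria, viruses and parasites and, in several cases, material from damaged cells. The genes described here are Tlr1, Tlr2, Tlr3, Tlr4, Tlr5, Tlr6, Tlr7, Tlr9 and Tlr13, together with Myd88, the adaptor on which all of these receptors except Tlr3 signal. They were found by gene symbol and are 10 of the 22462 genes in the deposited tables. All 10 were measured in every library.

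The study sequenced polyA RNA of the mouse cerebral cortex, from mice whose strain is labelled FVN/Swiss, in 17 libraries of 8 groups. The 7 purified cell types, each with 2 libraries, were microglia, endothelial cells, astrocytes, neurons and the oligodendrocyte lineage in its precursor, newly formed and myelinating stages. Whole cortex, not separated into cells, had 3 libraries. The labels name no treatment or mutation in any group, and give neither the age of the mice, nor the markers used for purification, nor which libraries share an animal. The p-values below therefore measure the spread between libraries, which may be technical.

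Toll-like receptors work as pairs. Tlr2 binds bacterial lipoproteins at the cell surface as a heterodimer with Tlr1 or Tlr6, Tlr4 senses lipopolysaccharide with the help of Ly96 (MD-2) and Cd14, and Tlr5 senses flagellin. Tlr3, Tlr7, Tlr9 and Tlr13 sense nucleic acids inside endosomes and are carried there by Unc93b1. Ligand binding recruits Myd88, or Ticam1 (TRIF) in the case of Tlr3 and of endocytosed Tlr4, and leads through IRAK kinases and TRAF ligases to NF-kappaB and interferon regulatory factors. In the brain these receptors are best known from microglia, the resident macrophages.

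Promoter windows of 4 of these genes are shown because their levels contrast: Tlr9, Tlr13 and Myd88 were highest in microglia and Tlr3 was not. RefSeq promoter windows (build GRCm38.p6) were matched for 8 of the 10 genes, 10 windows in all, each covering the 250 bases before an annotated start. The windows of the endosomal receptors Tlr9 (chr9:106222348-106222597, plus strand) and Tlr13 (chrX:106143025-106143274, plus strand) are followed by those of Tlr3 (chr8:45410381-45410630, minus strand) and Myd88 (chr9:119340019-119340268, minus strand), all written 5′ to 3′ on the gene's strand.

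Tlr9: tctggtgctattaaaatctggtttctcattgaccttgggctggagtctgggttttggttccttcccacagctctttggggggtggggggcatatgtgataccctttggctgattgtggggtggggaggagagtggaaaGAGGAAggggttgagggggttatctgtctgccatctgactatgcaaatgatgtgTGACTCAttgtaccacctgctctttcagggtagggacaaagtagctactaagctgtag

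Tlr13: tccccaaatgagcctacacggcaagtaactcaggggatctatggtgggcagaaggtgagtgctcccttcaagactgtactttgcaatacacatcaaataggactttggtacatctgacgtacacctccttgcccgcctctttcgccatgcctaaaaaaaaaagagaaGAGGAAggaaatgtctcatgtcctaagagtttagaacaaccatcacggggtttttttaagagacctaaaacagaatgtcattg

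Tlr3: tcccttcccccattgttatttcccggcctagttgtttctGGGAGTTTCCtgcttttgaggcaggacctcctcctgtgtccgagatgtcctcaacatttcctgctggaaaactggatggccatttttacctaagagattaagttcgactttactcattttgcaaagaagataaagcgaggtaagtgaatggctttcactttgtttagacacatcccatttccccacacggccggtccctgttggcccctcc

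Myd88: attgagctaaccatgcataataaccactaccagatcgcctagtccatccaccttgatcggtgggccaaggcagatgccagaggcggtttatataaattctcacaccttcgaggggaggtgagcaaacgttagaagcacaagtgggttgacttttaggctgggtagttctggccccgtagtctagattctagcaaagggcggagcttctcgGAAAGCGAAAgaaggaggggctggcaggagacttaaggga

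Capitals mark matches to 4 motifs searched on both strands. The core GAGGAA, bound by the myeloid factor PU.1, was found from -112 to -107 in the Tlr9 window and from -83 to -78 in the Tlr13 window, counted from the start site. It was also in 1 of the Tlr1 windows, and in 23.3% of all 32851 promoter windows of this length. The Tlr9 window also held the AP-1 motif TGANTCA, from -58 to -52, which 6.75% of windows hold. The Tlr3 window held the NF-kappaB motif, GGGA and TTTCC with any 1 base between them, from -211 to -202, against 0.356% of all windows. The PU.1 core was absent from the Tlr3 window, and also from those of Myd88 and Tlr6, which were highest in microglia. An interferon-response motif, GAAA and GAAA with any 2 bases between them, was found in the Myd88 window from -40 to -31 and as 2 overlapping matches in 1 of the Tlr6 windows, against 2.98% of all windows. The Tlr2 and Tlr5 windows held none of the 4 motifs. These matches describe letters only and say nothing of binding in these cells.

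Levels are FPKM, mapped fragments scaled by transcript length and by library size, as computed by the authors, in files where 0.1 is the lowest value listed. The sum of FPKM per library ran from 205621 to 389838, and 30.8% to 45.1% of genes stood at 0.1. Read numbers cannot be recovered from these values, so the counting error of low values cannot be given. On the log2(FPKM + 1) scale, libraries of the same group correlated with Pearson's r between 0.956 and 0.997. The cell type markers were chosen with earlier results of these data known, so their match to the labels is no independent check. All 10 microglia markers and 6 of 6 each for astrocytes, neurons, precursors and endothelial cells were called highest in the type they mark. So were 5 of 6 for each of the later oligodendrocyte stages. Over all genes tested, the share called highest ran from 0.457% in newly formed oligodendrocytes to 7.03% in microglia. The precursor libraries also held all 6 fibroblast markers at their highest level among the purified types.

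Of the 10 genes, 8 were called higher in microglia than in any of the other 6 purified types, against 7.03% of the 14011 genes tested. Calls here needed a limma adjusted p under 0.05 and a log2 difference of 1 or more from whichever type came closest. The 2 exceptions were Tlr4, which microglia shared with endothelial cells, and Tlr3, which read higher in astrocytes and endothelial cells than in microglia. By the same test none of the 10 was highest in astrocytes, neurons, precursors, newly formed or myelinating oligodendrocytes or endothelial cells, where 3.66%, 5.70%, 1.49%, 0.457%, 0.699% and 6.29% of all genes were called. Microglia were also the only group with all 10 genes at 1 FPKM or more in every library. Precursors, endothelial cells and whole cortex each had 4 such genes, astrocytes had Tlr3 and Myd88, and neurons and both later oligodendrocyte stages had Myd88 alone. Over all libraries 51 of 170 values stood at 0.1. Tlr1 reached 1 FPKM in microglia only, and Tlr5 in microglia and 1 precursor library, so these genes entered the test through the group where they are high. The count of 8 includes both.

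**Figure D1:**
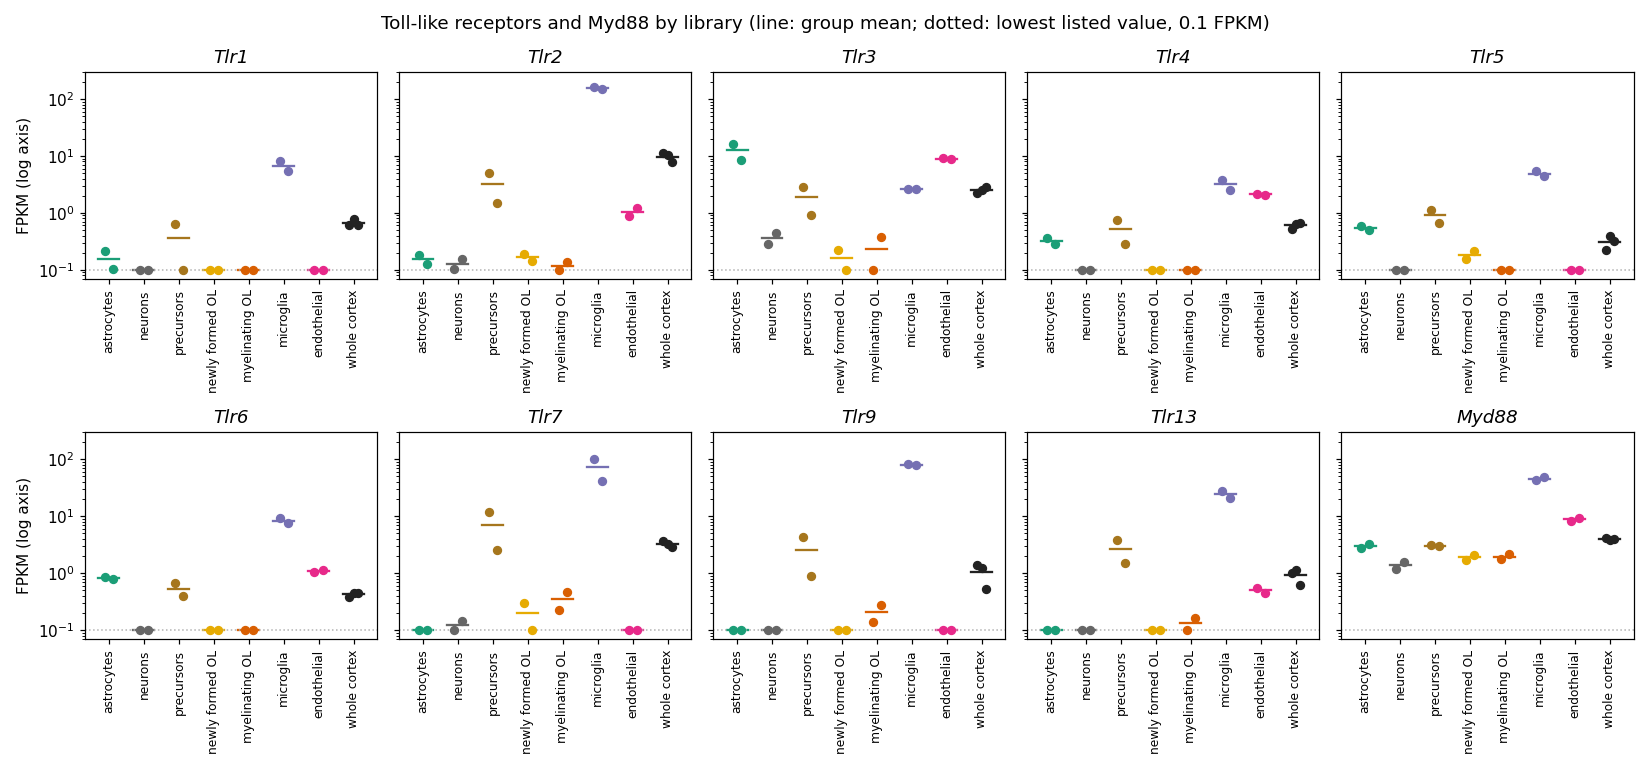
Level of each receptor and of Myd88 in each of the 17 libraries, in FPKM on a log axis, by group; dots are libraries, short lines are group means and the dotted line is the lowest listed value of 0.1 (OL, oligodendrocytes; precursors, oligodendrocyte precursor cells). Microglia stand highest in every panel except that of Tlr3, where astrocytes and endothelial cells are higher, and in that of Tlr4 a microglia library comes close to the endothelial cells.

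Tlr2 had the highest level of the 10 genes. Its microglia libraries read 161 and 150.4 FPKM, a mean of 156 ± 7.56 (SD, n = 2). The precursor libraries read 5.0 and 1.48, the endothelial libraries 0.884 and 1.22, and all libraries of astrocytes, neurons and later oligodendrocytes were below 0.2. Whole cortex read 11.2, 10.2 and 7.72. Microglia and every other group were far from overlapping, and microglia exceeded precursors, the next purified type, by 5.34 ± 0.29 (log2 difference of log2(FPKM + 1) ± SE; limma adjusted p = 1.65e-09). In the order of Tlr2 levels, microglia differed from whole cortex, and whole cortex from precursors by 1.46 (limma adjusted p = 5.31e-04). The further steps down, from precursors to endothelial cells and onwards, were not called.

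The dimer partners of Tlr2 were much lower on the same FPKM scale. Tlr1, the partner for triacylated lipoproteins, read 8.02 and 5.51 FPKM in microglia, from 0.606 to 0.766 in whole cortex, 0.629 in 1 precursor library and at most 0.210 in every other library. Microglia exceeded precursors by 2.52 ± 0.16, with no p-value given because Tlr1 entered the test through microglia alone. Tlr6, the partner for diacylated lipoproteins, read 9.25 and 7.52 in microglia. It was next highest in endothelial cells, at 1.06 and 1.11, and in astrocytes, at 0.854 and 0.773. These last groups did not differ beyond their spread (limma adjusted p = 0.127), whereas microglia exceeded endothelial cells by 2.17 ± 0.11 (limma adjusted p = 7.29e-10). Neurons and both later oligodendrocyte stages were at 0.1 for Tlr1 and Tlr6 alike.

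In microglia the Tlr2 level was thus 20.1 and 27.3 times that of Tlr1 and 17.4 and 20.01 times that of Tlr6. Endothelial cells differed in this: Tlr2 and Tlr6 stood near each other, with ratios of 0.837 and 1.10. In astrocytes Tlr6 was the higher of the pair, with ratios of Tlr2 to Tlr6 of 0.209 and 0.166. Tlr1 and Tlr6 are neighbours of similar sequence, and 14.8% of the 50-base windows of Tlr1 transcripts also occur in Tlr6, so part of their reads could have been assigned to either.

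Tlr4 was low throughout and was not confined to microglia. Its microglia libraries read 3.75 and 2.56 FPKM and its endothelial libraries 2.18 and 2.10. The higher microglia library stood well above the endothelial cells and the lower one just above them. The log2 difference of 0.39 ± 0.14 was below the limit of 1 for a call. Its limma adjusted p was 0.0865 in the test against each other type and 0.0283 for this pair alone. Whole cortex followed at 0.514 to 0.654 and precursors at 0.760 and 0.281, while astrocytes read 0.362 and 0.283 and neurons and later oligodendrocytes stood at 0.1. With microglia set aside, Tlr4 was called highest in endothelial cells, which exceeded precursors by 1.06 ± 0.14 (limma adjusted p = 2.88e-05). This difference fell short of the limit of 1 with libraries scaled to a common sum (0.89) and without the second precursor library (0.84).

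The proteins that present lipopolysaccharide to Tlr4 split between these groups. Cd14, the surface protein that hands lipopolysaccharide over, read 605 and 463 FPKM in microglia and 1.81 and 2.37 in endothelial cells. The Cd14 level was 161 and 181 times that of Tlr4 in the microglia libraries, and 0.828 and 1.13 times in the endothelial libraries. Ly96, which binds the lipid within the receptor complex, read 4.26 and 2.44 in microglia and 4.05 and 5.18 in endothelial cells. With all 7 types compared it was called highest in neither. With microglia set aside it was called highest in endothelial cells, which exceeded astrocytes by 1.25 ± 0.23 (limma adjusted p = 5.58e-04). Its difference of microglia from the mean of the other types was 0.94, short of a call, and it was called higher there with median-of-ratios scaling. Cd180 and Ly86, a receptor pair related to Tlr4 and Ly96, were both called highest in microglia, with Cd180 at 102 and 50.05 FPKM and Ly86 at 302 and 342. Ticam2, the bridging adaptor that links endocytosed Tlr4 to Ticam1, read 7.72 and 6.92 in microglia, at most 0.383 in precursors and 0.1 in all other purified libraries.

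Tlr5, the flagellin receptor, read 5.36 and 4.41 FPKM in microglia. Precursors followed at 1.14 and 0.665, astrocytes at 0.584 and 0.493, and whole cortex at 0.224 to 0.399. Endothelial cells, neurons and myelinating oligodendrocytes stood at 0.1. Microglia exceeded precursors by 1.64 ± 0.12, and no step below that in the order of levels was called. No p-value is given for this difference, since Tlr5 would not have entered the test without microglia. Tlr5 and Tlr6 were the receptors for which astrocytes read above whole cortex, other than Tlr3, but neither of these differences was called.

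Of the endosomal receptors, Tlr9, which senses unmethylated CpG DNA, read 83.0 and 77.8 FPKM in microglia (mean 80.4 ± 3.65, SD, n = 2). Precursors read 4.26 and 0.873, whole cortex 1.40, 1.22 and 0.532, and myelinating oligodendrocytes 0.137 and 0.276. All libraries of astrocytes, neurons, newly formed oligodendrocytes and endothelial cells stood at 0.1. Microglia exceeded precursors by 4.70 ± 0.33 (limma adjusted p = 2.45e-08).

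Tlr7, a sensor of single-stranded RNA, read 102 and 41.9 FPKM in microglia, where its mean of 72.1 had an SD of 42.7 (n = 2). Precursors read 11.7 and 2.53, whole cortex 3.63, 3.29 and 2.90, and no other library was above 0.469. The microglia libraries thus differed by 2.44 times from each other and still lay above all others. Microglia exceeded precursors by 3.31 ± 0.45 (limma adjusted p = 3.44e-05), the widest standard error among the 10 genes.

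Among the 10 genes Tlr7 had the widest gap between the microglia libraries, while Tlr2, Tlr3 and Tlr9 differed by at most 1.07 times. Markers of macrophages at the brain's borders shifted the same way: Mrc1 was 2.23 times as high in the first microglia library as in the second, F13a1 2.52 times, Cd163 2.07 times and Lyve1 2.01 times, whereas Pf4 was 1.21 times as high and Cbr2 0.923 times. Their summed level was 308 FPKM in the first library and 249 in the second, and their part in the Tlr7 difference was not tested. Of the 10 microglia markers, P2ry12 was 1.31 times as high in the first library and Tmem119 0.539 times.

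Tlr13, a sensor of bacterial ribosomal RNA, read 28.2 and 20.8 FPKM in microglia and 3.78 and 1.5 in precursors. Endothelial cells, unlike for Tlr7 and Tlr9, were above the lowest listed value, at 0.538 and 0.456. Whole cortex read 1.01, 1.14 and 0.620. Microglia exceeded precursors by 2.87 ± 0.23 (limma adjusted p = 1.12e-07). Unc93b1, the transporter of the endosomal receptors, read 483 and 664 FPKM in microglia, from 12.5 to 23.9 in precursors and myelinating oligodendrocytes, and at most 9.31 in the other purified types. It exceeded precursors by 4.77 ± 0.25 in microglia (limma adjusted p = 9.31e-10).

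Tlr3, the receptor for double-stranded RNA, had a pattern of its own. Astrocytes read 16.5 and 8.66 FPKM and endothelial cells 9.04 and 8.81. The lower astrocyte library lay just below both endothelial libraries, so the groups overlapped, and their difference of 0.39 ± 0.29 was not called (limma adjusted p = 0.269). Without the first astrocyte library the difference was -0.040.

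Microglia, at 2.62 and 2.60 FPKM, were below both of these groups for Tlr3. Astrocytes exceeded microglia by 1.85 ± 0.29 (limma adjusted p = 5.01e-05) and endothelial cells exceeded microglia by 1.46 ± 0.29 (limma adjusted p = 4.95e-04). Whole cortex, at 2.26, 2.57 and 2.88, and precursors, at 2.85 and 0.90, were not called different from microglia. Neurons read 0.284 and 0.442, newly formed oligodendrocytes 0.221 and 0.1, and myelinating oligodendrocytes 0.1 and 0.373, all lower than microglia. Relative to Tlr4, Tlr3 was 45.7 and 30.6 times as high in astrocytes, 4.14 and 4.20 times in endothelial cells, and 0.699 and 1.01 times in microglia. Ticam1, the adaptor of Tlr3, did not follow it: it read 43.5 and 45.9 in microglia, 3.73 and 2.87 in astrocytes and 5.01 and 4.93 in endothelial cells. It was called highest in microglia, which exceeded precursors by 2.87 ± 0.15 (limma adjusted p = 8.35e-10).

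Myd88 was the one gene of the 10 above 1 FPKM in all 17 libraries. It read 42.7 and 49.2 FPKM in microglia, 8.35 and 9.22 in endothelial cells, 3.88 to 4.19 in whole cortex, 3.09 and 3.02 in precursors, 2.75 and 3.25 in astrocytes, and 1.19 to 2.13 in the 6 libraries of neurons and later oligodendrocytes. Microglia exceeded endothelial cells by 2.26 ± 0.15 (limma adjusted p = 1.89e-08). With microglia set aside, endothelial cells exceeded precursors by 1.27 ± 0.15 (limma adjusted p = 9.46e-06), and by 0.89, short of a call, with libraries scaled to a common sum. Precursors and astrocytes did not differ beyond their spread. Of the exonic bases of Myd88, 14.3% lie opposite exons of Acaa1a, and the library kit named in the labels keeps no strand, so reads there cannot be told apart. Acaa1a itself read between 11.2 and 55.5 FPKM over the libraries and was not called higher in microglia. In neurons Acaa1a read 11.2 FPKM in both libraries, against 1.19 and 1.54 for Myd88. The part of such reads in the low Myd88 levels was not tested.

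Endothelial cells thus held the second level of Myd88, Tlr4 and Tlr6 among the purified types, and for Tlr3 their libraries overlapped those of astrocytes. With microglia set aside, 2 of the 10 genes, Tlr4 and Myd88, were called highest in endothelial cells, against 9.19% of all genes. Neither was called with libraries scaled to a common sum, and Tlr4 was not called without the second precursor library. Microglia markers were near the lowest listed value there, with medians of 0.0358% and 0.0238% of their microglia level. The endothelial share of the microglia level was 69.2% and 66.4% for Tlr4, 18.2% and 20.1% for Myd88 and 12.6% and 13.3% for Tlr6. Tlr7, Tlr9, Tlr1 and Tlr5 were at 0.1 in both endothelial libraries.

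Oligodendrocyte precursors were the second purified type for Tlr2, Tlr7, Tlr9, Tlr13, Tlr1 and Tlr5. With microglia set aside, 3 of the 10 genes were called highest in precursors, against 2.64% of all genes. The differences were 2.32 ± 0.45 for Tlr7 and 1.38 ± 0.33 for Tlr9, both from myelinating oligodendrocytes, and 1.21 ± 0.23 for Tlr13, from endothelial cells (limma adjusted p = 0.00293, 0.0135 and 0.00276). Without the first precursor library, and also with libraries scaled by the median of ratios, only Tlr7 was called. Without the second precursor library, 4 genes were called, with Tlr2 added.

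Microglia markers moved with these precursor levels. Over the 10 markers the median share of the microglia level was 6.02% in the first precursor library (range 3.0% to 31.1%) and 3.43% in the second (1.62% to 9.75%), with no marker at 0.1. Summed, they read 817 and 418 FPKM there, against 44.5 to 121 in the 4 libraries of later oligodendrocytes. The receptor shares in the same libraries were 16.2% and 3.50% for Tlr7, 15.4% and 6.12% for Tlr13, 5.30% and 1.09% for Tlr9, and 3.21% and 0.952% for Tlr2. The first precursor library was also the higher one for every receptor: from 1.68 times for Tlr6 and 1.71 times for Tlr5 to 4.63 times for Tlr7, 4.88 times for Tlr9 and 6.29 times for Tlr1, whose second library was at 0.1. The 10 microglia markers ran from 1.48 times for Fcrls to 3.19 times for P2ry12, and Myd88 differed by 1.02 times. The part of microglia RNA in the precursor levels was not tested.

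Along the oligodendrocyte lineage, 5 of the 10 genes, Tlr2, Tlr3, Tlr7, Tlr9 and Tlr13, were lower in newly formed oligodendrocytes than in precursors, against 18.4% of all genes. All 5 read higher in the first precursor library than in the second, from 2.52 times for Tlr13 to 4.88 times for Tlr9. These 5 calls were not recomputed with libraries left out or rescaled. None of the 10 was called between newly formed and myelinating oligodendrocytes in either direction, where 19.9% and 2.13% of all genes were called higher and lower in the earlier stage. The microglia markers fell along the first of these steps as well, to medians of 0.276% and 0.334% of their microglia level in newly formed oligodendrocytes. The part of microglia RNA in this step was not tested.

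**Figure D2:**
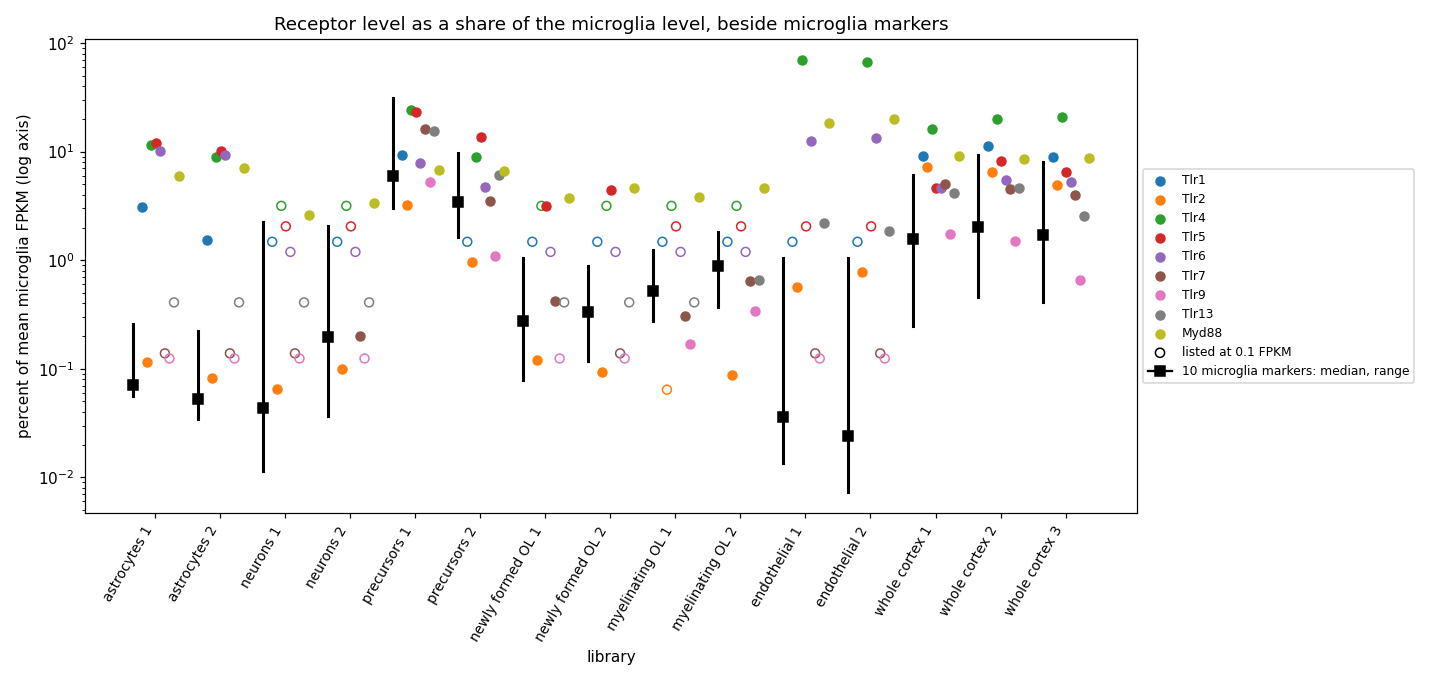
Level of each gene as a percent of its mean microglia FPKM (log axis) in each library outside microglia; filled circles are values above the lowest listed one, open circles stand for 0.1 FPKM, and black squares with bars give the median and range of the 10 microglia markers. Tlr3 is left out because it was not higher in microglia. In the precursor libraries the receptors lie in and around the range of the markers, while in endothelial cells Tlr4, Myd88 and Tlr6 lie far above it.

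Neurons had more of these genes at the lowest listed value than any other group. All 10 genes were lower in neurons than in microglia, where 17.1% of all genes were called, and 6 stood at 0.1 in both neuron libraries. Astrocytes were lower than microglia in 9 of the 10, against 18.6% of all genes, and Tlr3 was higher, as were 32.6% of all genes. The counts of lower genes in neurons and in astrocytes include Tlr1 and Tlr5, which entered the test through microglia. Microglia markers in astrocytes had medians of 0.0713% and 0.0523% of their microglia level. The astrocyte share of the microglia level was 12% and 10.1% for Tlr5, 11.5% and 8.95% for Tlr4, 10.2% and 9.22% for Tlr6, 5.99% and 7.08% for Myd88, and 3.10% and 1.53% for Tlr1. The lowest listed value, 0.1 FPKM, is itself a share of 2.05% for Tlr5, 3.17% for Tlr4, 1.19% for Tlr6 and 1.48% for Tlr1. The Tlr1 shares are thus close to that limit. Tlr2 was at 0.115% and 0.0825%, and Tlr7, Tlr9 and Tlr13 were listed at 0.1 FPKM in both astrocyte libraries.

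In whole cortex 9 of the 10 genes were lower than in microglia, a direction in which 14.0% of all genes were called, and Tlr3 was not called (log2 difference of cortex from microglia -0.020). The 9 include Tlr1 and Tlr5, which entered the test through microglia. In RNA of a whole tissue, fewer cells of a type and less RNA per cell cannot be told apart. The share of the microglia level in the 3 cortex libraries was 7.16%, 6.54% and 4.96% for Tlr2, 5.03%, 4.57% and 4.02% for Tlr7, and 1.74%, 1.51% and 0.662% for Tlr9. Tlr4 kept 16.3% to 20.7%, Myd88 8.46% to 9.12% and Tlr3 86.6% to 110.3%. The microglia markers had medians of 1.58%, 2.01% and 1.71%, and the border macrophage markers 7.11%, 6.76% and 7.61%.

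Of the remaining mouse receptors, Tlr12, a sensor of parasite profilin, read 5.24 and 9.65 FPKM in microglia and 2.74 and 4.12 in endothelial cells. Microglia exceeded endothelial cells by 0.90 ± 0.20 (limma adjusted p = 0.00112), short of the log2 difference of 1 needed for a call, so that Tlr12, like Tlr4, had its second level in endothelial cells. Tlr8 read 0.707 and 0.238 in microglia and Tlr11 was listed at 0.1 in every library, and neither was tested.

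The rest of the pathway was described by comparing microglia with the mean of the other 6 purified types. In this comparison 9 of the 10 genes were higher and none was lower, against 15.2% of all genes higher and 28.1% lower. Among the 9 are Tlr1 and Tlr5, which entered the test through microglia. The median log2 difference over the 10 was 3.17, and over all genes tested it was -0.44. Scaling the libraries by the median of ratios moved the median of all genes to -0.17, with 2930 genes higher and 2856 lower in place of 2133 and 3934, and scaling to a common sum moved it to -0.72, with 1478 higher and 5478 lower. The count of 9 of the 10 held under each scaling.

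**Figure D3:**
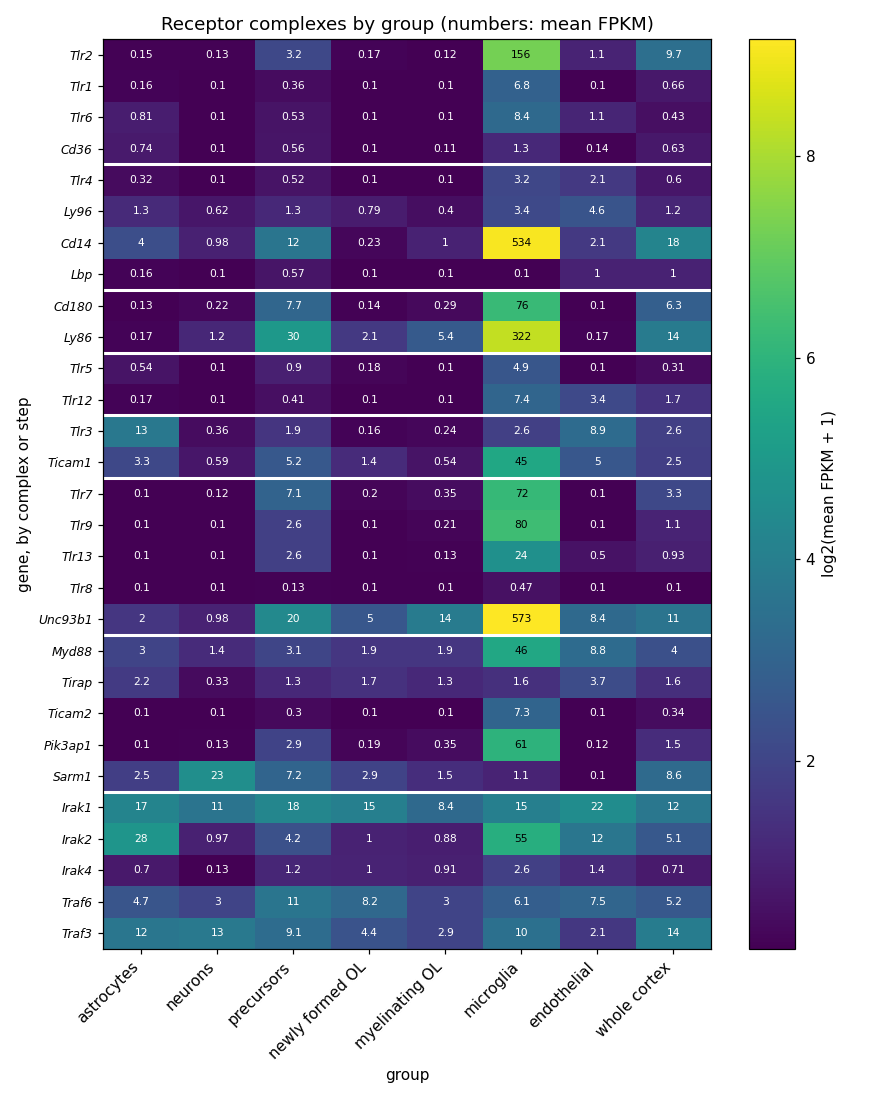
Mean FPKM (numbers) and log2(mean FPKM + 1) (colour) of receptors, their partners and their adaptors in the 8 groups, with white lines between complexes or steps. Tlr2, Cd14, Ly86, Unc93b1 and Pik3ap1 are brightest in the microglia column, whereas Irak1 has a similar colour across groups.

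Co-receptors and chaperones were the list with the highest median difference, 5.52 over the 11 tested genes of 12. Of these, 8 were higher in microglia than the mean, none was lower, and the same 8 were called highest in microglia. Of all genes tested, 15.2% were higher, 28.1% lower and 7.03% called highest in microglia. With a common sum Cnpy3 was not called highest and Hsp90b1 was called lower, and with median-of-ratios scaling Ly96 was added to the genes called higher. The 8 genes included Cd14 (7.42), Ctss (7.65) and Lgmn (4.85), of which the last 2 are proteases that cleave endosomal receptors, and Lrrc33 (5.73), which read 122 and 139.8 FPKM in microglia and 18.3 and 18.5 in endothelial cells. Hsp90b1, the general receptor chaperone known as gp96, was not called (-0.93), whereas its co-chaperone Cnpy3 was higher in microglia (2.22).

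Adaptors, IRAK kinases and TRAF ligases had a median of 0.67 over 11 tested genes of 12. Of these, 4 were higher in microglia (Pik3ap1 5.46, Ticam1 3.87, Irak2 3.50 and Ticam2 2.88), 1 was lower and 6 were not called. The shares of all genes tested were 15.2% higher and 28.1% lower. Ticam2 would not have entered the test without microglia, and the count of 4 includes it. Irak2, a kinase that sustains receptor signalling, was not called highest in microglia alone: it read 60.7 and 48.9 FPKM there and 32.9 and 23.1 in astrocytes. Tirap, the adaptor that places Myd88 beneath Tlr2 and Tlr4, was highest in endothelial cells by level, at 3.82 and 3.57 FPKM, against 1.64 and 1.58 in microglia. Sarm1, a protein of this adaptor family known for driving axon degeneration, read 23.5 and 23.2 FPKM in neurons, exceeded precursors there by 1.58 ± 0.16 (limma adjusted p = 3.54e-06), and was the gene called lower in microglia (-1.09). With median-of-ratios scaling Sarm1 was no longer called lower, and Irak4, Traf3 and Tollip were called higher.

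The shared kinases below the receptors did not follow them. Their median was -0.0016 over 12 genes, with 1 higher in microglia (Map3k8, 3.39), 4 lower (Map3k7 -1.25, Tab3 -1.16, Ube2n -1.05 and Chuk -1.04) and 7 not called. Over all genes tested, 15.2% were higher and 28.1% lower, so these counts lie near the common share. All 4 lower calls were lost with median-of-ratios scaling. Map3k8, a kinase of the ERK branch, read 23.5 and 17.4 FPKM in microglia and 12.9 and 13.7 in endothelial cells. Ripk1 was called highest in endothelial cells, at 17.5 and 17.6 FPKM, a call lost with a common sum.

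Transcription factors of the pathway had a median of 2.99 over 10 genes, with 8 higher, none lower and 2 not called. The shares of all genes tested were 15.2% higher and 28.1% lower. Irf8 (6.96) and Irf5 (6.62), factors that act downstream of Myd88, read 246 and 253 FPKM and 205 and 204.6 FPKM in microglia, and at most 8.36 in any other purified library. The 5 NF-kappaB subunits ranged from 2.16 for Rel to 4.08 for Nfkb2. Irf7, the factor for interferon induction by Tlr7 and Tlr9, was called highest in endothelial cells instead, at 5.36 and 6.15 FPKM against 1.75 and 1.41 in microglia. Irf3 was not called (0.68).

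Target genes of the pathway had a median of 4.25 over 18 tested genes of 20, with 14 higher in microglia, none lower, and 11 called highest there. Of all genes tested, 15.2% were higher, 28.1% lower and 7.03% called highest in microglia. With a common sum Ptgs2 was not called higher, and Nfkbiz and Tnfaip3 were not called highest. The chemokines Ccl4 (9.47) and Ccl3 (9.33) and the cytokine Tnf (8.00) differed most. Their microglia libraries read 3312 and 2225 FPKM for Ccl4, 3157 and 1713 for Ccl3, and 498 and 565 for Tnf. Il1b read 45.3 and 18.4. In whole cortex Tnf kept 1.76%, 3.49% and 4.54% of its microglia level and Ccl3 2.58%, 3.14% and 2.76%, whereas Il1b kept 36.7%, 38.5% and 26.1%. Il6, not tested, was at most 0.127 in microglia. Endothelial cells held the highest level of 3 targets: Cd40, at 59.98 and 69.9 FPKM, Ptgs2, at 18.0 and 18.2, and Nos2, at 7.84 and 7.81, which stood at 0.1 in all other purified libraries. Over all genes tested, 6.29% were called highest in endothelial cells.

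Negative regulators had a median of 1.02 over 11 tested genes of 12, with 6 higher, 1 lower and 4 not called. Of all genes tested, 15.2% were higher, 28.1% lower and 7.03% called highest in microglia. Zc3h12a (5.48), an RNase that degrades cytokine transcripts, Socs3 (4.31), an inhibitor of cytokine signalling, and Tnip2 were called highest in microglia, of which Tnip2 was not with a common sum. Sigirr, a membrane inhibitor of the receptors, read 28.3 and 30.5 FPKM in endothelial cells and at most 1.15 in every other purified library (difference 3.96 ± 0.14, limma adjusted p = 8.29e-12). Tank was called highest in astrocytes, at 47.7 and 34.1 FPKM. It was also the gene called lower in microglia (-1.0), a call lost with median-of-ratios scaling.

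**Figure D4:**
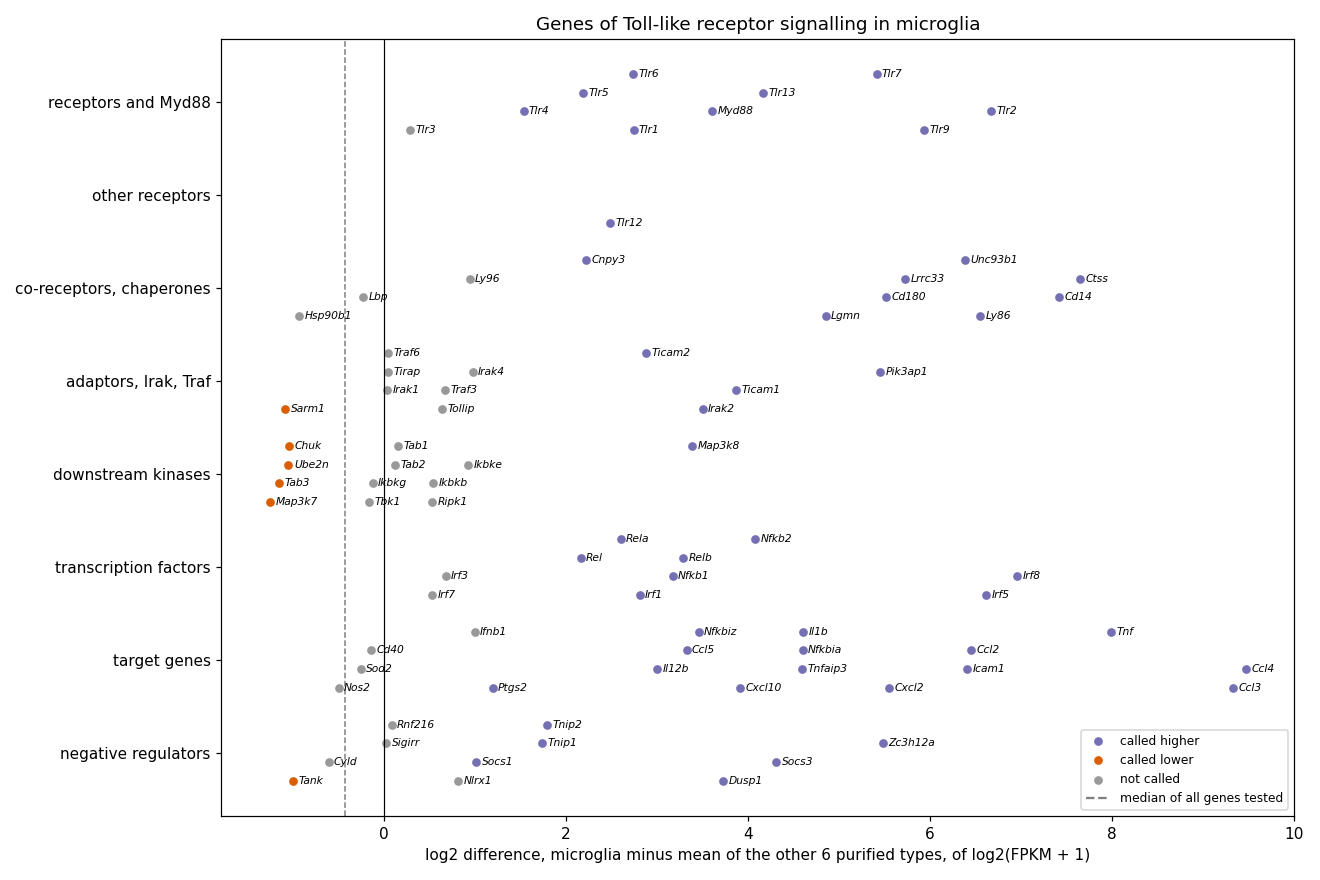
Difference of microglia from the mean of the other 6 purified types in log2(FPKM + 1) for each tested gene of the pathway lists (rows of labelled dots, coloured by call); the dashed line is the median of all genes tested, -0.44. Co-receptors, transcription factors and target genes extend to differences above 5, while most downstream kinases lie between -1.25 and 1.

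Markers of other immune cells were also present in the microglia libraries. All 6 border macrophage markers were called highest in microglia, where 7.03% of all genes were called. Their summed levels were 308 and 249 FPKM there, against 21.5 and 15.5 in precursors. Cd163 is counted among them, though it would not have entered the test without microglia. The 8 neutrophil markers summed to 107 and 133 FPKM in microglia and to 15.1 and 1.92 in precursors. The 6 B cell markers summed to 11.0 and 13.6 FPKM in microglia and the measured T cell markers to 3.92 and 4.55. The 10 microglia markers ranged from 152 FPKM (Aif1) to 4806 (C1qa) in the same libraries. The part of these cells in the receptor levels was not tested.

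The genes whose pattern over the 17 libraries was most like each receptor were found by Pearson's r of log2(FPKM + 1), a description in which the 2 microglia libraries weigh heavily. Closest to Tlr9 were Ms4a6d (r = 0.998), Clec4a3 (0.998), Ptafr (0.997), Ccdc88b (0.997) and Pik3ap1 (0.997). Closest to Tlr7 were Fyb (0.997), Dock2 (0.995) and Cd86 (0.994), and closest to Tlr2 were C5ar1 (0.991), Nlrp3 (0.989) and Bcl2a1b (0.987). Tlr13 was most like Il21r (0.991) and Irf8 (0.990), Tlr1 like 1700110I01Rik (0.996) and Csf2rb (0.996), and Myd88 like Renbp (0.992). Tlr4 was most like the kinase genes Tec (0.987) and Map3k8 (0.983), Tlr5 like Apobr (0.982) and Tlr6 like Gdf15 (0.987).

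Tlr3 stood apart here too, being most like Ccdc122 (0.977), Tmc7 (0.964), Hes1 (0.962), Mr1 (0.957) and Bcar3 (0.952). Its r with the other 9 genes ran from 0.0538 with Tlr7 to 0.517 with Tlr4, while Tlr1 and Tlr9 reached 0.977 with each other. Of the exonic bases of Tlr3, 4.90% lie opposite exons of Gm45542, where reads cannot be told apart. Each of the 10 genes had 1 row in the isoform tables, equal to its gene value, so these data hold nothing on isoforms of the receptors.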

How the data were processed

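PolyA RNA of 17 mouse cortex libraries was analysed from FPKM per gene as deposited by the authors, where 0.1 is the lowest value. The submitters' processing notes name Cufflinks 1.3.0, TopHat 1.3.3, Bowtie 0.12.7, CASAVA and build mm9. Depth per library is unknown from FPKM, and no counting interval is given. Groups came from the labels.

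All 17 libraries entered one fit with limma 3.58.1 (R 4.3.3), which used log2(FPKM + 1), a mean per group and a prior variance that follows the level, for the 14011 genes with at least 1 FPKM in at least 2 libraries. The pseudocount of 1 understates differences of low genes. A type was called higher when even its weakest one-sided comparison with another type had a p-value under 0.05 after Benjamini-Hochberg adjustment over all genes, with a log2 difference of 1 or more there. The 28 pairs of groups, and microglia against the mean of the other 6 types, were tested two-sided with the same limits. The fit was tested on simulated data.

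The named genes are all 10 members, the 5 genes most correlated with each, and pathway genes in order of their difference. The members, gene lists and markers were chosen with earlier results of these data known. Alternatives were the pseudocount, filter, scaling, prior variance, size limit, replicate block and each library left out. Promoter windows come from RefSeq (GRCm38.p6) and sequence overlaps from GENCODE M21, handled with Python 3.11.15 and pandas 2.3.3. Coordinates of the authors' build are not used here.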

Additional observations from a re-analysis of the deposited data

How the results depend on the processing

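The count of 8 genes highest in microglia was 7 with the filter at 5 FPKM, which leaves out Tlr4 and Tlr5, and with a log2 difference of at least 2, and 7 to 8 when libraries were left out in turn, Tlr1 being lost to the filter without either microglia library. All genes highest in microglia numbered 985, 511 with a log2 difference of at least 2, and 826 to 989 with libraries left out. The 3 genes highest in precursors with microglia set aside became 1 with median-of-ratios scaling and with a log2 difference of at least 2, and 1 to 4 with libraries left out. The 2 highest in endothelial cells became 1 with the filter at 5 FPKM, 0 with a common sum (Tlr4 0.89 and Myd88 0.89, limma adjusted p = 3.58e-04 and 3.67e-04) and 0 with a log2 difference of at least 2, and 1 to 2 with libraries left out (1 without the second precursor library, where Tlr4 read 0.84). The Tlr3 difference of cortex from microglia, -0.020, was 0.48 with a common sum and from -0.081 to 0.044 with libraries left out (0.044 without the first cortex library). Tlr3 in astrocytes less the next type ran from -0.040 (without the first astrocyte library) to 0.82, and in endothelial cells from -0.82 to 0.040. The cause was not tested.

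Of pathway genes against the mean, higher adaptors went from 4 to 7 with median-of-ratios scaling and lower ones from 1 to 0 there and at the stricter limit of 2. Higher kinases went from 1 to 2 with a pseudocount of 0.1 and with median-of-ratios scaling, and 1 to 2 with libraries left out, and lower kinases from 4 to 0 with that scaling and at the stricter limit, and 1 to 4 with libraries left out. Lower co-receptors went from 0 to 1 with a common sum, and 0 to 1 with libraries left out. Higher target genes went from 14 to 13 with a common sum and 12 to 14 with libraries left out. Higher negative regulators went from 6 to 3 at the stricter limit, and the lower one to 0 there, with median-of-ratios scaling and in some fits with a library left out (0 to 1).

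Of 614 recomputed single-gene values, 606 kept direction and call, 4 lost the call and 4 turned. The labels do not say whether equal replicate numbers pair libraries of different groups. Over 28 pairs of groups the correlation of same-numbered deviations ran from -0.25 to 0.73, and 7 were above 0.1. Some same-numbered libraries thus deviated alike, and the cause was not tested. The replicate block changed no call, with 8 genes highest in microglia as before.

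Groups of 2 libraries, an unknown depth and 51 of 170 values at 0.1 limit the precision of low levels.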
